A study of Mus musculus with 2 samples.

Results

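The genes described here carry glucose into cells, break it down to pyruvate and lactate, and decide whether pyruvate goes on to the mitochondrion. They were examined in endothelial cells sorted from mouse kidneys at embryonic day E15.5, Theiler stage 23. The list holds 37 genes, and its members are all probe sets that the platform annotation gives to exactly 1 of them. That rule found 73 of the 45101 probe sets on the array, for 33 of the 37 genes and of 18194 genes in all. Gpi1, Eno1, G6pdx and Pfkfb1 had no such probe set and were not analysed here. The study holds 2 arrays of 1 group. Each was hybridised with RNA of GFP-positive cells sorted from CD-1 mouse kidneys in which the Tie2 promoter drives GFP, with 5 to 10 kidneys pooled per sample and 2 rounds of RNA amplification. Tie2 is a receptor of endothelium that is also known from some blood cells, so the reporter need not mark endothelium alone. The sample titles name Flk1 rather than Tie2, and the source label names renal artery and vein although whole kidneys were dissociated. Since both samples belong to 1 group, nothing was contrasted or tested. Nothing in the labels ties the pools to separate litters, so replicate spread may be technical only, and in bulk RNA fewer cells of a type and less RNA per cell cannot be told apart.

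Glycolysis splits glucose into pyruvate in the cytosol and yields ATP without oxygen. Lactate dehydrogenase then turns pyruvate into lactate, which leaves the cell through monocarboxylate carriers, whereas pyruvate dehydrogenase commits it to the mitochondrion. Endothelial cells are known to draw most of their ATP from glycolysis, and the regulatory enzyme PFKFB3 is known to be needed for vessel sprouting in mice. Most steps have several isozymes, each typical of certain tissues, such as muscle, liver, brain or blood cells.

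Paired values are intensities in arbitrary units, that of replicate 1 first and that of replicate 2 second. An intensity depends on the probes as well as on the RNA, so the levels of different probe sets were not set against each other. A probe set was called above background when it exceeded on both arrays the 95th percentile of probe sets for olfactory, vomeronasal and taste receptors, 198.9 in replicate 1 and 203.9 in replicate 2. Of the 73 member probe sets 52 (71.2%) were above background, against 49.6% of all probe sets. Here and below, values over all probe sets include those annotated to no gene or to several. They were not computed for probe sets of 1 gene alone, which all members are. With each gene represented by its brightest probe set, 27 of 33 genes (81.8%) were above background, against 61.2% of all genes. The counts of genes by step, list and marker set below are small, have this same 61.2% beside them, and were not tested against it. The other 6 were Slc16a3, Pgam2 and Pdk2, which passed on neither array, and Eno2, Pklr and Pdk4, which passed in replicate 2 only. Of the cell type markers, all 10 endothelial ones were above background, among them Tek (15908 and 21499), Kdr (8939 and 12139), Cdh5 (22435 and 20733) and Pecam1 (1257 and 2247). Tek is the gene of Tie2, whose promoter drives the GFP used for sorting, so the sort itself selected for it. Markers of other cells passed too, 10 of 10 for macrophages and 7 of 8 for renal stroma. The endothelial count therefore shows that such RNA was present, not that the cells were pure.

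**Figure D1:**
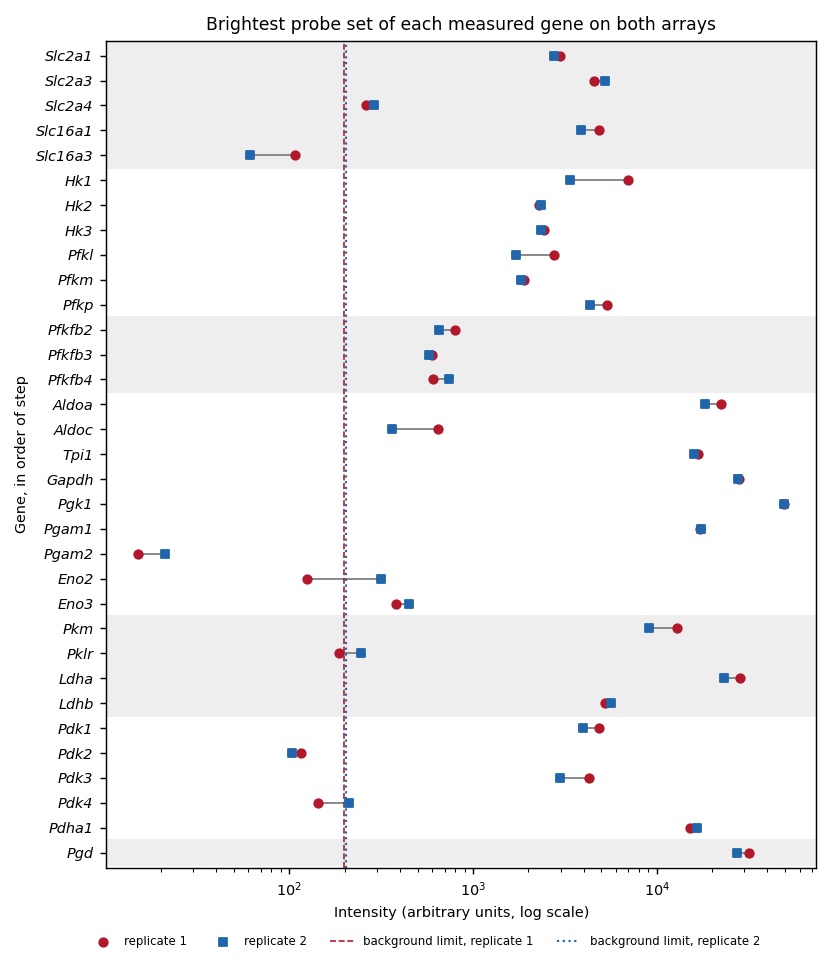
Intensity of the brightest probe set of each of the 33 measured genes (rows, ordered by step and shaded by group) in replicate 1 (red circles) and replicate 2 (blue squares), on a log axis in arbitrary units, with the background limit of each array as a vertical line. The 27 genes above background lie right of both lines, and 3 further genes lie right of the limit in replicate 2 only.

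Transport was represented by 4 of its 5 genes. Slc2a1, which encodes GLUT1, the basal glucose transporter of endothelium and red cells, was above background with each of its 3 probe sets. They gave 2961 and 2770, 2938 and 2521, and 1877 and 1976, so the pools differed little whichever probe set was read. Slc2a3 encodes GLUT3, a high-affinity transporter known from neurons and white blood cells. Its brightest probe set gave 4550 and 5215 and a second 1982 and 3391. Both are of kinds whose probes may match other transcripts, and the remaining probe sets were below the limit, at 165.8 and 195.0 and at 34.8 and 7.38. The level of Slc2a3 therefore rests on probe sets of lower specificity. Slc2a4, for the insulin-responsive transporter GLUT4 of muscle and fat, passed narrowly with 1 probe set (262.2 and 287.9) and not with the other (27.6 and 131.5). Of the lactate carriers, Slc16a1 (MCT1) gave 4854 and 3881. Slc16a3 (MCT4), the carrier known for lactate export from strongly glycolytic cells, was below the limit on both arrays (108.1 and 60.9).

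All 6 hexokinase and phosphofructokinase genes were above background. Hexokinases trap glucose in the cell by phosphorylation. Hk1, the widely expressed form, gave 6957 in replicate 1 and 3390 in replicate 2, and its other single-gene probe set was near the bottom of the scale (77.9 and 16.1). Hk2, an inducible form of muscle and growing cells, gave nearly the same value in each pool (2277 and 2332). Hk3 is known mainly from white blood cells, and both of its probe sets passed, at 2430 and 2342 and at 1093 and 1862. Macrophage markers were present beside it, 10 of 10 above background with summed intensities of 81395 and 89886, among them Csf1r (34030 and 36806), Adgre1 (4305 and 7632), Cd68 (2358 and 2218) and Lyz2 (8262 and 8857). Their part in the Hk3 signal was not tested.

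Phosphofructokinase commits sugar to glycolysis, and its liver, muscle and platelet forms were all above background. Pfkl passed with all 3 of its probe sets, the brightest at 2775 and 1712, and the pools differed less in the others (645.3 and 694.2, and 282.0 and 245.2). Pfkm gave 1894 and 1831. Pfkp gave 5341 and 4340 with 1 probe set, whereas its others gave 184.0 and 281.6, or lay far under the limit on both arrays, so only that probe set placed the gene above background on both arrays.

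The bifunctional PFKFB enzymes make and remove the sugar phosphate that activates phosphofructokinase. All 3 measured genes of this family were above background, each with exactly 1 probe set. Pfkfb3 gave 595.0 and 577.9, and its second probe set stayed under the limit (58.9 and 182.0). Pfkfb2, known as the heart form, gave 801.4 and 652.7 with 1 probe set, and the other 3 ranged from 41.1 to 147.9 in replicate 1 and from 45.7 to 113.9 in replicate 2. Pfkfb4, known from testis and as a hypoxia-inducible form, gave 604.4 and 736.1. Of the 7 probe sets of this family 3 passed, against 49.6% of all probe sets.

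In lower glycolysis 7 of 9 measured genes were above background, namely all but Pgam2 and Eno2. The forms used by most cells had every probe set above the limit. For Aldoa, the main aldolase, the 5 probe sets ranged from 3674 to 23126 in replicate 1 and from 3689 to 18232 in replicate 2. Tpi1, which interconverts the triose phosphates, ranged over its 3 probe sets from 13640 to 16826 and from 12657 to 15978. Pgk1, which makes the first ATP of the pathway, gave 49288 and 49090, 31028 and 38250, and 28015 and 26044, and Pgam1 gave 17202 and 17454 with its only probe set.

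Of the tissue-restricted forms of these steps 2 of 4 passed. Aldoc, the brain aldolase, gave 646.4 and 360.6 with 1 probe set and 7.07 and 24.4 with the other. Pgam2, the muscle mutase, was far under the limit (15.1 and 21.1). Of the enolases, the neuronal Eno2 passed in replicate 2 only (124.7 and 316.1) and the muscle form Eno3 passed on both arrays (382.9 and 449.1). Markers of skeletal and cardiac muscle were above background for 0 of 8 genes, among them Ckm (241.4 and 187.2), Myh1 (44.2 and 50.3), Myh3 (21.1 and 43.5) and Myh6 (3.0 and 20.6), and their summed intensities were 664.8 and 616.1.

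Gapdh, which oxidises the triose phosphate, was measured by the array's 3 control probe sets, placed along 1 transcript. The one at the 3' end gave 28030 and 27639, the middle one 8356 and 7463 and the one at the 5' end 1439 and 1239. The array design offers the ratio of the 3' to the 5' control as a quality measure, the only ratio between probe sets given here, and it was 19.5 and 22.3. On both arrays the value thus fell from the 3' to the 5' control. Differences between the probes are part of this ratio. Positions of the other probe sets within their transcripts were not analysed here. Whether distance from the 3' end put any of them under the limit was therefore not tested.

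**Figure D2:**
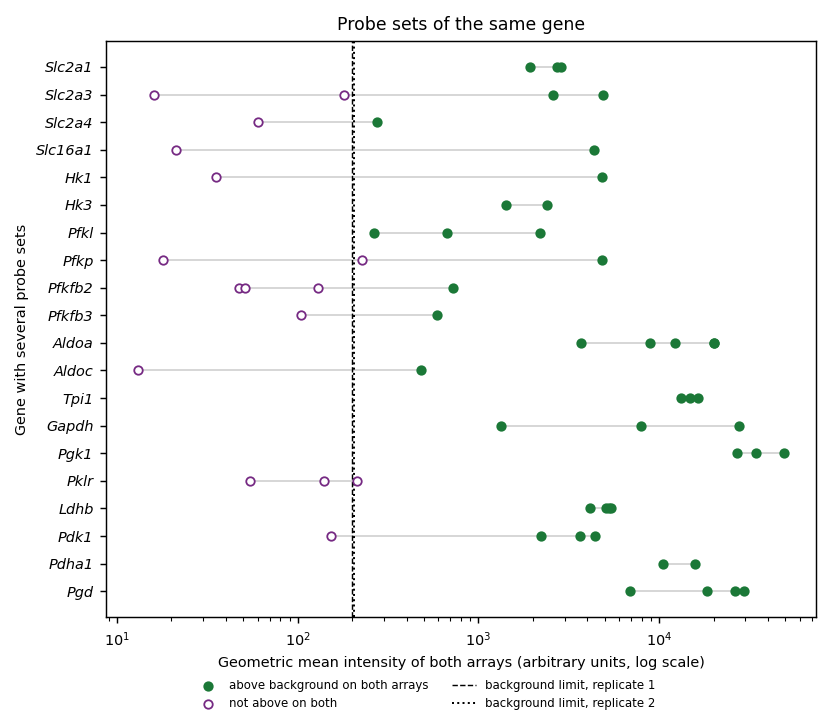
Geometric mean intensity over both arrays (log axis, arbitrary units) of every probe set of the 20 member genes with several, filled where above background on both arrays and open where not, with the background limits as vertical lines. In 9 genes filled and open points stand in 1 row, in 10 all points are filled and in Pklr none is.

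Probe sets of 1 gene often stood on different sides of the limit. This held for 9 of the 20 member genes with several probe sets (45%), and for 44.3% of such genes on the whole array. The genes were Slc2a3, Slc2a4, Slc16a1, Hk1, Pfkp, Pfkfb2, Pfkfb3, Aldoc and Pdk1. A low probe set therefore does not show that a gene was unused, which bears on the 5 genes not above background that had 1 probe set each, Slc16a3, Pgam2, Eno2, Pdk2 and Pdk4. Probe sets flagged by the manufacturer as open to cross-hybridization, with the suffix x, were all above background among the members (15 of 15), against 61.4% of all probe sets with that suffix. Several of the 15 read the same gene, 5 of them Aldoa, so they are not separate observations. Of member probe sets without a suffix 22 of 36 passed, against 45.3% of all such probe sets. Aldoa was read by probe sets of the suffix x only, and they also gave the highest values of Hk3, Tpi1, Pgk1 and Pgd.

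Pyruvate kinase makes pyruvate and the last ATP of the pathway. Pkm, the gene of its muscle and embryonic forms, gave 12930 and 9111 with its only probe set, which does not tell the splice forms apart in the values used here. Pklr, the gene of the liver and red cell forms, was not above background with any of 3 probe sets (185.4 and 246.7, 125.9 and 155.8, and 61.4 and 48.1), the first of which passed in replicate 2. Of 9 measured erythroid markers 5 were above background, with summed intensities of 58458 and 51142. Hbb-y gave 55397 and 48789, Hbb-bh1 gave 1127 and 467.1 and Hba-x gave 972.9 and 491.8, while Hba-a1 was below the limit (19.6 and 69.9). Globin values are uncertain, since near-identical globin genes may share probes. Their part in the signal of red cell isozymes was not tested.

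Both subunits of lactate dehydrogenase were above background. Ldha, whose subunit favours the making of lactate, gave 28346 and 23274. Ldhb, whose subunit is typical of heart and favours the return of lactate to pyruvate, passed with each of 4 probe sets, which ranged from 3870 to 5231 in replicate 1 and from 4493 to 5642 in replicate 2. On the log2 scale Ldha was 0.30 higher in replicate 1, and all 4 Ldhb probe sets were slightly higher in replicate 2, by at most 0.20.

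The Ldha promoter is shown because, of all members above background, it held most matches to ACGTG, the letters at the core of sites known for hypoxia-inducible factors. Promoters were taken from RefSeq (GRCm38.p6) as 250 bases before to 50 after a transcript start, and ACGTG was sought on both strands, so that its reverse complement CACGT counts too and the palindrome CACGTG counts as 2 overlapping matches. Ldha had 5 matches in 1 of its 2 promoters, at -145, -144, -48, -47 and -34 from the start. Slc16a1 and Pfkm followed with 3 each (for Pfkm in 1 of its 4 promoters, of which 2 held none), of which 2 lay before the start, in a CACGTG, and 1 after it. The Ldhb promoter, chosen after its values were seen as that of the other subunit, had none. The 250 bases before the start are printed 5' to 3' on the strand of the gene, with matches in capitals.
Ldha, chr7:46845554-46845803, plus strand: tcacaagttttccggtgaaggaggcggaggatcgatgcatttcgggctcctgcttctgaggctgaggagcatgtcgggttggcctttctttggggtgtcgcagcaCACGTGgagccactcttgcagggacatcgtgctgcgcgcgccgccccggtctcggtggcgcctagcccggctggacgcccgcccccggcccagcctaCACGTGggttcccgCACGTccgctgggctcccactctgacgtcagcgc
Slc16a1, chr3:104638414-104638663, plus strand: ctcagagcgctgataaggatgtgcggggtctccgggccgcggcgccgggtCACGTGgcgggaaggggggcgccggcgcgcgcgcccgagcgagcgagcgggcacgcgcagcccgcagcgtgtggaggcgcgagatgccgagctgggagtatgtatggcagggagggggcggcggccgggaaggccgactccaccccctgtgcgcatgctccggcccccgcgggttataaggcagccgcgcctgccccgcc
Pfkm, chr15:98092339-98092588, plus strand: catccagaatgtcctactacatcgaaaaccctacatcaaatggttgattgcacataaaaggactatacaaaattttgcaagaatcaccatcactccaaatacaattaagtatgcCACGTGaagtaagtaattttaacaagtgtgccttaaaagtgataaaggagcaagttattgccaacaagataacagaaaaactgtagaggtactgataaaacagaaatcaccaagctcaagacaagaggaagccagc
Ldhb, chr6:142507958-142508207, minus strand: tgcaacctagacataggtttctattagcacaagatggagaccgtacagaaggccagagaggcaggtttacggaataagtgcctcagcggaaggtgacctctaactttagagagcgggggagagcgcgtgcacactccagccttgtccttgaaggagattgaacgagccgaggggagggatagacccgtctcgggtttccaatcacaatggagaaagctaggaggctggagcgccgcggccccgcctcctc

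Over the whole list, 31 of the 33 measured genes had a promoter in the RefSeq table, 47 promoters in all. Of these 47, 22 (46.8%) held ACGTG on either strand, against 25.4% of 11563 promoters of genes above background on the array and 19.6% of all 32851 promoters of the same length. By gene the counts were 18 of 31 members (58.1%) and 29.6% of 9028 genes above background. At least 2 matches, which a single CACGTG gives, were found in 11 member promoters (23.4%) and in 8.21% of all promoters. That share was not computed for genes above background alone. The median G and C content was 59.0% in member promoters, 61.0% for genes above background and 52.7% over all promoters. ACGTG holds the pair CG, and the median number of CG pairs was 15, 20 and 7 in the same order. Matches were also found for members not above background, in 2 of 6 genes, Slc16a3 and Pdk2, and none was found for 9 of 25 members above background, among them Pdk1, Tpi1 and Pgd. Which of several promoters the cells used was not measured, and a match is a run of letters, not a site shown to be bound.

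Pyruvate dehydrogenase is switched off by 4 kinases, of which Pdk1 and Pdk3 were above background and Pdk2 and Pdk4 were not. Pdk1, known as a hypoxia-inducible kinase, passed with 3 of its 4 probe sets (4838 and 3988, 4400 and 3047, and 2074 and 2385), and the fourth passed in replicate 1 only (243.1 and 96.7). Pdk3 gave 4259 and 2969. Pdk2, widely expressed in adult tissues, gave 116.5 and 103.5, and Pdk4, known as the kinase of fasting and fat use, gave 143.5 and 212.4. Their target was represented throughout: Pdha1, its catalytic alpha subunit, gave 15181 and 16462 and 10357 and 10777. In the rest of the complex, its phosphatases and its pyruvate carriers 7 of 7 measured genes were above background, with Pdhb at 14997 and 13140, Dlat at 5585 and 7191 and Dld at 5603 and 6399.

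Entry to the pentose phosphate pathway, which makes NADPH and ribose for nucleotides, was read through Pgd, the second of its dehydrogenases. All 4 probe sets passed, at 31736 and 27167, 28903 and 24020, 23853 and 14044, and 7397 and 6488, each higher in replicate 1. G6pdx, the other member at this entry, had no usable probe set and was not analysed here. The 6 further genes of the pathway that were listed were all above background (6 of 6). H6pd, its dehydrogenase in the endoplasmic reticulum, gave 2444 and 2257, the lactonase Pgls gave 4466 and 2220 and the isomerase Rpia gave 3898 and 2492.

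Alternative routes of glucose were counted in the same way. The list of other glucose and hexose transporters holds 10 further genes of the Slc2a and Slc5a families, and what each carries was not examined. Of these 10 genes 5 were above background, against 61.2% of all genes. Slc2a2 (8.38 and 16.8), the transporter of liver and proximal tubule, was below the limit, as were Slc2a5 (43.2 and 71.6), a fructose transporter, and Slc2a6 (73.4 and 99.0). The 5 that passed, named after their values were seen, were Slc2a8, Slc2a9, Slc2a10, Slc2a12 and Slc2a13. The kidney's sodium-coupled Slc5a2 passed in replicate 1 only (220.2 and 158.1, chosen likewise), and tubule markers were above background for 0 of 8 genes, with Lhx1 at 108.1 and 13.6, Pax8 at 112.5 and 151.2, Slc34a1 at 130.4 and 196.3 and Umod at 53.2 and 118.3, and summed intensities of 978.3 and 963.0. Of the other isozymes 2 of 6 passed, the ADP-dependent glucokinase Adpgk (980.7 and 555.4) and Bpgm (3421 and 5015), the mutase that makes bisphosphoglycerate in red cells, whereas Hkdc1 passed in replicate 1 only (202.5 and 29.4). Testis isozymes gave 0 of 4, with Ldhc at 69.3 and 36.6, Pgk2 at 6.12 and 5.34 and Gapdhs at 90.4 and 200.5, and 3 of these 4 also stand in the isozyme list.

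Gluconeogenesis, the making of glucose, was represented by 3 of 7 genes, against 61.2% of all genes. Pyruvate carboxylase Pcx (743.7 and 693.3), the mitochondrial Pck2 (5947 and 4985) and the widely expressed phosphatase G6pc3 (378.2 and 577.8) were above background, and the cytosolic Pck1 of liver and tubule was not (101.3 and 128.4). Of the glycogen genes 8 of 10 passed. Gys1, the glycogen synthase of most tissues, gave 1032 and 600.7 and the glycogen primer Gyg gave 21836 and 19677, while the liver synthase Gys2 (107.1 and 17.4) and the muscle phosphorylase Pygm (185.4 and 177.5) were below the limit.

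Partners of the lactate carriers and regulators of the pathway were counted in the same way. Of 5 further carriers and chaperones 4 passed, with Slc16a7 (MCT2) at 916.0 and 872.7 and Slc16a6 at 1105 and 1138, and Slc16a8 did not (86.8 and 58.5). Of 16 regulators 14 were above background. Among them Hif1a gave 5427 and 7216, Epas1 gave 45280 and 46836 and Arnt, the partner of both in the hypoxia response, gave 3328 and 4147. The exceptions were Mlxipl, the glucose-sensing factor of liver and fat (11.5 and 23.6), and Prkaa2, an AMP kinase subunit of muscle (64.8 and 147.4).

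**Figure D3:**
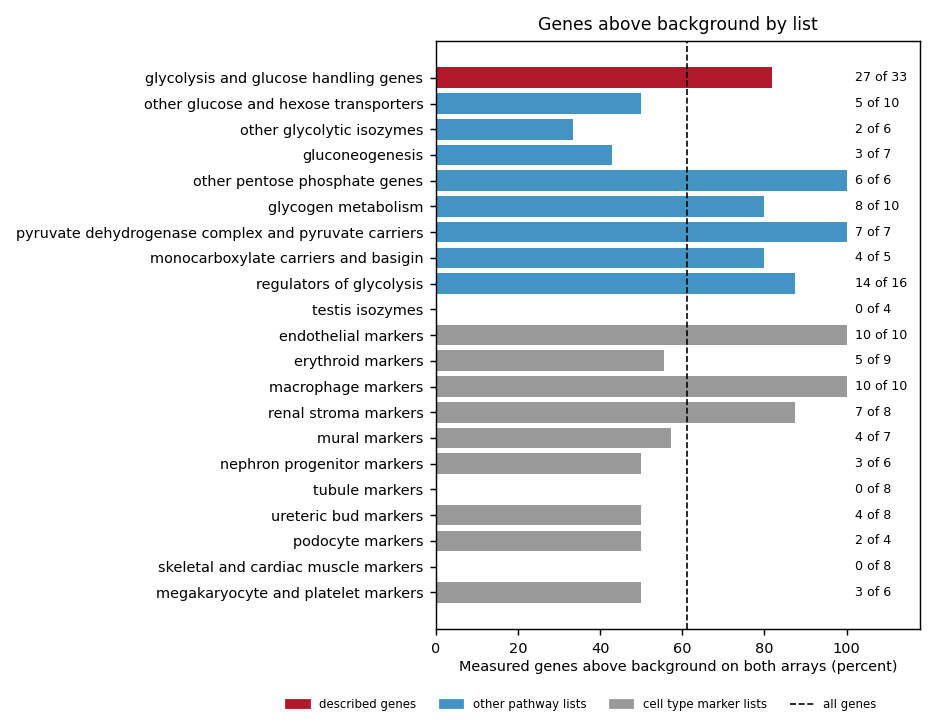
Share of measured genes that passed the background limit (percent, bars from 0) for the described genes, 9 other pathway lists and 11 lists of cell type markers, with counts at the right and a dashed line at the 61.2% of all genes. The described genes reached 27 of 33, the pyruvate dehydrogenase list 7 of 7 and testis isozymes 0 of 4.

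The last question was how far the pools differed in these genes. The difference is log2 of replicate 1 minus log2 of replicate 2, after the median over all probe sets above background was set to 0. The 27 genes above background had a median difference of 0.09, against 0.02 for all 11128 such genes, and ran from -0.27 in Pfkfb4 to 1.05 in Hk1. They were higher in replicate 1 for 19 of 27 (70.4%), against 52.1% of all genes above background. After quantile normalization the count was 17 of 27 (63.0%), against 50.9% of all. Over the 52 probe sets above background, which belong to 27 genes, the differences had an SD of 0.34, against 0.51 over all 22388. Among probe sets not above background it was 1.28 for members and 1.41 for all, so the spread was wider at low intensity in both. Members were not matched to other probe sets by intensity. With every probe set kept, low ones included, the SD of the members was 0.71.

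Only 1 of the 52 probe sets (1.92%) differed by over 2-fold, against 4.94% of all probe sets above background. By gene it was 1 of 27 (3.70%), against 4.76% of all genes above background. This was Hk1, 2.07-fold higher in replicate 1 and just past the 2-fold edge, and it rests on 1 probe set. Next came Aldoc (1.81-fold) and Pfkl (1.64-fold), both higher in replicate 1. The difference of Pfkl was not shared by its probe sets, which gave 0.71, 0.22 and -0.09. The other 24 genes (88.9%) differed by under 1.5-fold, as did 79.7% of all genes above background, and Gapdh (0.03), Pgk1 (0.02), Hk2 (-0.02) and Pgam1 (-0.01) lay close to 0 in their brightest probe sets.

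**Figure D4:**
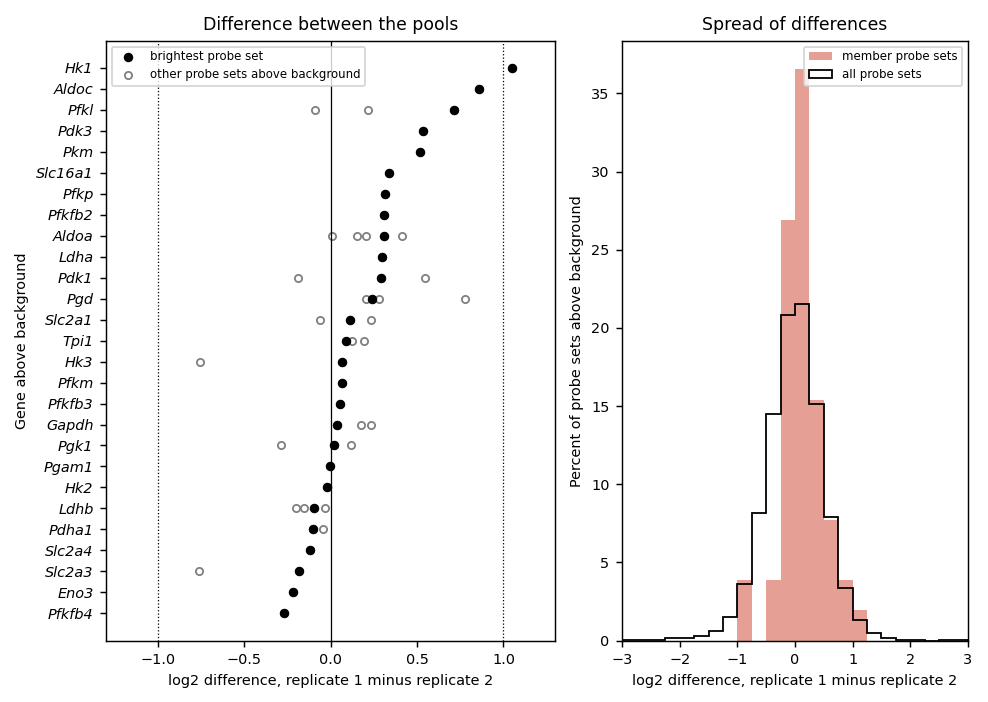
Left, log2 difference between the pools (replicate 1 minus replicate 2) of the 27 genes above background, with the brightest probe set filled and others above background open, and dotted lines at 2-fold. Right, the same difference as percent of the 52 member probe sets (filled bars) and of all 22388 probe sets above background (outline), with an SD of 0.34 for members and 0.51 for all.

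Where a gene had several probe sets above background, their differences had the same sign in 7 of 12 member genes (58.3%) and in 47.9% of 4942 genes on the array, with a median range within a gene of 0.40 and 0.50. On the values as deposited it was 6 of 12 (50%), against 47.8% on the array, since the dimmest Aldoa probe set (3674 and 3689) changed sign with the centring. All 4 probe sets of Pgd, 3 of Tpi1 and 3 of Gapdh were higher in replicate 1, and all 4 of Ldhb, both of Pdha1 and both of Slc2a3 that passed were higher in replicate 2. Among the related genes, Pgls was 2.03-fold higher in replicate 1, and Slc2a9 (259.4 and 546.6) and Emb, a chaperone of lactate carriers (1584 and 3753), were 2.09-fold and 2.35-fold higher in replicate 2, these last named after their values were seen. Markers of other cells moved between the pools too. Renal stroma markers were above background for 7 of 8 genes and all 7 were higher in replicate 2, with summed intensities of 7758 and 28397, among them Foxd1 (775.4 and 1775), Pdgfra (719.8 and 4811), Dcn (992.6 and 3690) and Lum (522.8 and 2398). Mural markers passed for 4 of 7 genes, all 4 higher in replicate 2, with sums of 6640 and 11360. Among them Pdgfrb gave 2246 and 4253, Rgs5 1212 and 1838 and Acta2 2289 and 3693. Tagln passed in replicate 2 only (98.8 and 334.4). None of these markers was listed at 0, and their part in the differences of the glucose genes was not tested.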

How the data were processed

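The labels describe RNA of sorted cells hybridised to Affymetrix mouse 3' expression arrays. The values used are the intensity values the authors deposited, 1 per probe set on a linear scale, and the submitters' processing notes name GCOS without a version. Both arrays had a trimmed mean of 1500.01, which a common scaling target gives. The paper's methods describe another array type and a single amplification, so its tests were not taken over, and a build for the annotation was not given in the sources used here. Array number, here 2, limits the precision.

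The annotation gave 1 gene to 34958 probe sets, several to 932 and none to 9211, and 33 of 33 measured members matched a gene of the GRCm38.p6 table. Probe sets shared with other genes (4 for these members) were left out. Background came from 86 probe sets of 77 sensory receptor genes, and an offset of -0.01 was removed from log2 differences. No test was run. The members and lists were chosen with earlier results of these data known. Named genes are every measured member, of each pathway list the first 3 measured and up to 5 on the minority side of the limit, and of each marker list the first 4. Nephron progenitor markers passed for 3 of 6 genes and ureteric bud markers for 4 of 8. The first 4 measured of each list are given whether or not they passed. For nephron progenitors only Six2 passed of these (269.5 and 229.5), not Cited1 (11.7 and 13.6), Eya1 (124.0 and 318.0) or Osr1 (30.6 and 121.3). For ureteric bud only Wnt11 passed of these (373.9 and 563.7), not Ret (203.2 and 163.0), Wnt9b (188.3 and 259.0) or Calb1 (124.6 and 407.9). Podocyte markers passed for 2 of 4 (Nphs1 at 89.1 and 100.2, Podxl at 29868 and 30060, Synpo at 1012 and 2346, Wt1 at 144.0 and 346.8) and platelet markers for 3 of 6 (Pf4 at 13136 and 13626, Itga2b at 653.2 and 813.4, Gp9 at 19.6 and 86.8, Gp1bb at 292.6 and 254.4). Which cells gave the Podxl and Pf4 signals was not measured, so these values alone do not show podocytes or platelets. Centring was tested on simulated data. The limit was also run on them, but it is a percentile of the sensory receptor probe sets themselves. The share of those probe sets above it on each array is thus fixed by definition, so the limit was not tested. Python 3.11.15, numpy 2.4.6 and pandas 2.3.3 were used.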

Additional observations from a re-analysis of the deposited data

How the results depend on the processing

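The count of 27 member genes above background was 31 with a limit of 100 (adding Eno2, Pklr, Pdk2 and Pdk4, against 72.7% of all genes). It was 24 at 2 times the limit (without Slc2a4, Aldoc and Eno3, against 52.5%). With the highest sensory receptor value as the limit it was 25 (against 54.3%). Reading a gene by its median probe set gave 23 (against 55.6% of all genes). Reading genes by probe sets without a suffix, where they had one, gave 25 (against 58.7%). Genes with suffixed probe sets only, such as Hk1, Aldoa and Ldha, kept their brightest probe set in that setting and in its share. Leaving out replicate 1 gave 30 (against 64.5%) and leaving out replicate 2 gave 27 (against 64.3%). The median difference between the pools stayed between 0.06 and 0.09 under the alternatives run. Without a filter on low values the SD of member probe sets was 0.71, and 9 of them differed by over 2-fold. With a limit of 100 the number over 2-fold was 2. The SD and the shares over all probe sets were not computed under these settings, so these values have no comparison. Counts of single lists moved by over 1.5 times in 14 of 140 settings, as with a limit of 100, which gave 5 of 7 gluconeogenesis genes and 4 of 8 tubule markers. The count of 4 of 8 ureteric bud markers became 8 with a limit of 100, 1 at 2 times the limit or with the highest sensory receptor value, and 7 without replicate 1. Differences of single genes depended most on the probe set. With probe sets without a suffix, which left Slc2a3 and Aldoc below background, that of Slc2a3 was 2.25 (against -0.18) and that of Aldoc -1.77 (against 0.86), and that of Hk3 was -0.75 and that of Pfkl 0.22, and that of Pfkl was -0.09 and that of Pfkp -0.60 by the median probe set. The cause was not tested. No paired analysis was possible because there is 1 group.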

Other observations

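Probe sets that the annotation gives to several genes were left out of the counts, and 4 of them include a member. For Gapdh, 1 probe set shared with 4 other genes gave 36086 and 38586, and those shared with 1 pseudogene gave 622.7 and 638.1 and 236.6 and 244.7. For Hk1, 1 shared with 5 genes of a ribosomal protein family gave 50744 and 50214.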
